A study of Homo sapiens with 4 samples.

Results

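The genes described here are 8 markers of neurons and neuroendocrine cells, BEX1, NEFH, NEFM, NEFL, UCHL1, SYP, CHGA and NCAM1, read in 2 human cell lines of non-small cell lung cancer. They were read on every array probe set that the platform annotation ties to exactly 1 of these genes, which gave 19 of the 54675 probe sets, for 8 of 19775 annotated genes. The 4 arrays were H1299 cells transfected with hMOF siRNA, H1299 cells with scramble siRNA, A549 cells with hMOF siRNA and A549 cells with scramble siRNA, with 1 array for each. A549 is a lung adenocarcinoma line, H1299 is a lung carcinoma line from a lymph node metastasis, and hMOF is the histone H4 acetyltransferase encoded by KAT8. All cells were grown in the same serum-containing DMEM and transfected with a Lipofectamine reagent. The time after transfection is not given in the labels. The arrays were sorted by their source names, since a treatment tag gave hMOF siRNA for both A549 arrays and control siRNA for both H1299 arrays. The 8 genes were selected on their signal differences between lines and between siRNAs on these same arrays, so their values are given as a description with no test. No group had a second array, so a difference between 2 arrays has no error of its own. With 1 array for each of these cultures, fewer cells expressing a gene and less RNA per cell cannot be told apart.

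Neurofilaments are intermediate filaments of axons, built from a light (NEFL), a medium (NEFM) and a heavy (NEFH) subunit, and the heavy subunit does not form filaments without a partner. Neuroendocrine cells store peptides in dense core granules, whose matrix holds chromogranin A (CHGA), and also carry small synaptic-like vesicles with synaptophysin (SYP) in their membrane. In lung tumours CHGA, SYP and NCAM1 (the neural cell adhesion molecule, CD56) are the usual stains for neuroendocrine differentiation. UCHL1 (PGP9.5) is a ubiquitin C-terminal hydrolase that is abundant in neurons, and BEX1 is a small adaptor protein of the nervous system. Many neuronal genes are held silent in other tissues by the repressor REST.

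The label fitted the arrays only in part. BEX1 had high signals on both H1299 arrays. NEFH in H1299 had 264 and 119 with scramble and 1393 and 514 with hMOF siRNA on its 2 probe sets. Both genes had signals below 44 in A549. UCHL1 201387_s_at was bright on all 4 arrays, and SYP, CHGA, NCAM1 and NEFM had signals of at most 114 on every array. NEFL was dim in H1299, with 2 of its 3 probe sets somewhat brighter in A549. Under hMOF siRNA, NEFH was 5.29-fold and 4.31-fold higher than under scramble in H1299 on its 2 probe sets, and no other probe set of the 8 genes reached a 2-fold difference with siRNA on the scale used. That scale is log2(signal + 29.06), where 29.06 is the 20th percentile of all signals, which shrinks differences between dim values. Of the 19 probe sets, 7 reached the minimum mean signal of 78.1 set for the tests across genes, and they belonged to 4 of the 8 genes (BEX1, NEFH, UCHL1 and NCAM1). The other 4 genes (NEFM, NEFL, SYP and CHGA) had no probe set above it.

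**Figure D1:**
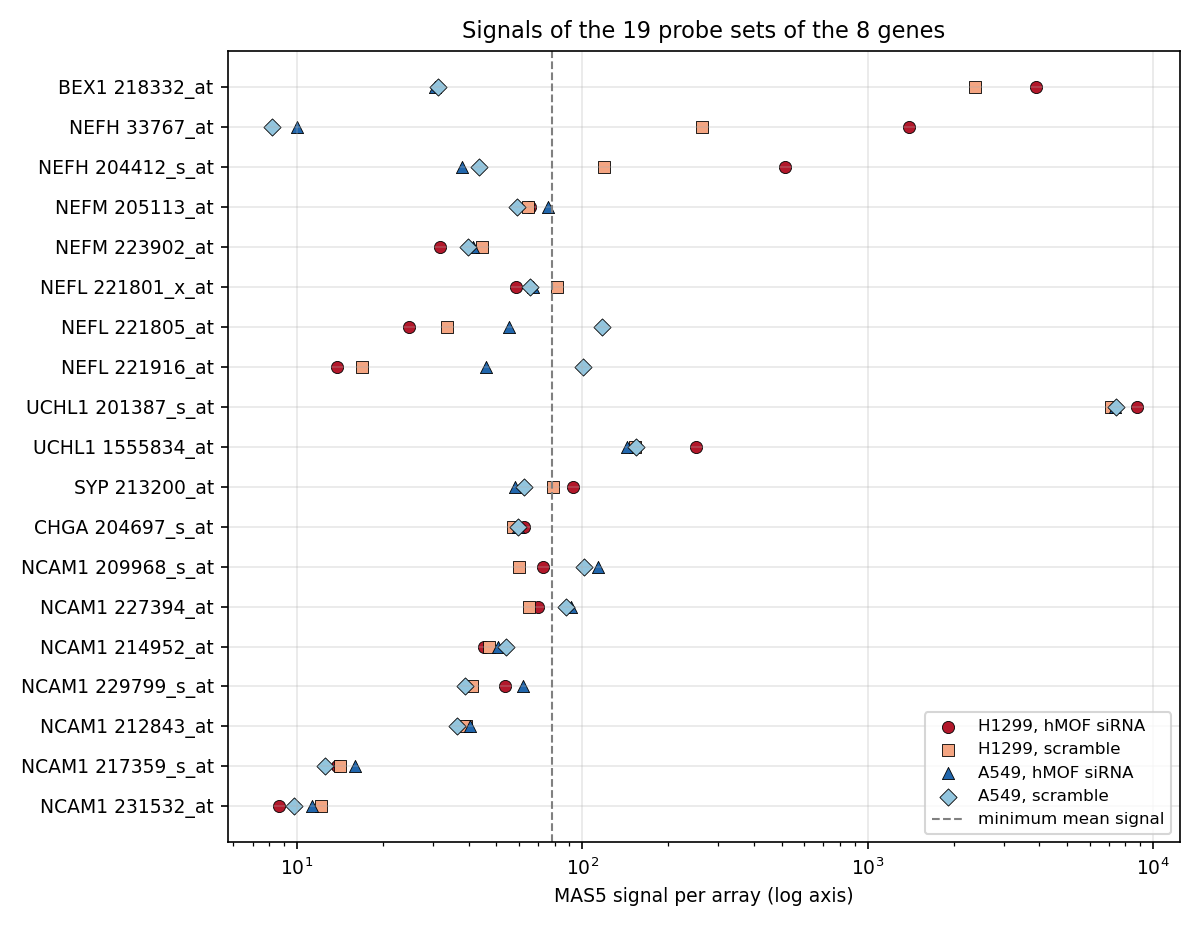
MAS5 signal of the 19 probe sets (rows) on the 4 arrays, on a log axis, with 1 symbol per array and a dashed line at the minimum mean signal of 78.1. BEX1 and both NEFH probe sets separate H1299 from A549, UCHL1 201387_s_at lies between 7105 and 8749 on all arrays, and most other probe sets lie near or below the line.

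The promoters of 3 of these genes are shown because the genes stood for 3 of the patterns seen: BEX1 for a high signal in H1299 and a low one in A549, UCHL1 for a high signal in both lines, and CHGA for a dim signal in both. Each is the 250 bases before the start that the RefSeq promoter table on GRCh38.p14 uses for the gene, at chrX:103064172-103064421 on the minus strand for BEX1, chr4:41256678-41256927 on the plus strand for UCHL1 and chr14:92922900-92923149 on the plus strand for CHGA. For CHGA that start lies inside the gene's RefSeq span given further on, downstream of its outer end. Capitals mark 3 motifs on either strand, the core TGACG of the cyclic AMP response element, the GC box GGGCGG and the TATA motif TATAAA.
BEX1: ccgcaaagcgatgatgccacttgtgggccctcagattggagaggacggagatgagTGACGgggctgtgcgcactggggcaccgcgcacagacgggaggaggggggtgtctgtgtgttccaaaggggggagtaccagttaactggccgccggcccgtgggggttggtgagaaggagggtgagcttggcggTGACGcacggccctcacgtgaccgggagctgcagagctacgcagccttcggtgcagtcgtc
UCHL1: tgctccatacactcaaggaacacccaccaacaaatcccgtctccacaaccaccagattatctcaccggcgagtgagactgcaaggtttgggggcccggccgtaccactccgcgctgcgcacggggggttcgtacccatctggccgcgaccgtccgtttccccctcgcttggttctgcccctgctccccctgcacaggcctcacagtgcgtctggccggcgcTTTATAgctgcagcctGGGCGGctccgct
CHGA: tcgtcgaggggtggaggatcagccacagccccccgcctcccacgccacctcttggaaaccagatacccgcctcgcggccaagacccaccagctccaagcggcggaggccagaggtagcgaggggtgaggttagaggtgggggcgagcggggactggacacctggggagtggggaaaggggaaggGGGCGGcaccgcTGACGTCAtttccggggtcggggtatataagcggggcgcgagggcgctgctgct
The BEX1 window held TGACG in 2 places, and the CHGA window held it on both strands in an overlapping pair, 54 and 51 bases before the start. Of 27305 promoter windows of this length, 21.7% held TGACG. A GC box was found in the UCHL1 and CHGA windows, and in 42.3% of all windows, and TATAAA was found in the UCHL1 window, beginning 29 bases before the start, and in 11.1% of all. The windows held 19 CpG dinucleotides for BEX1, 20 for UCHL1 and 21 for CHGA, against a median of 11. In CpG number these windows were thus close to each other, and whether CpG number bears on the genes' signals was not tested. CAGCACC and GGACAG, parts of the long site bound by REST, were in none of the 3 windows, and in 6.07% and 17.1% of all. No other matches overlapped, and a match or its absence in this window says nothing of binding.

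BEX1 lies on chromosome X (103062651 to 103064171, GRCh38.p14) and had 1 probe set, 218332_at. Its signal was 3903 with hMOF siRNA and 2374 with scramble in H1299. In A549 it was 30.6 with hMOF siRNA and 31.3 with scramble. Both H1299 arrays were far above both A549 arrays, whose values stood close to the offset. The signal ratio of H1299 to A549 was 128 under hMOF siRNA and 75.9 under scramble, and on the log2(signal + 29.06) scale the differences were 6.04 and 5.32. These were the differences of rank 3 and rank 8 from the top among the 12830 genes with a probe set above the minimum. BEX1 was chosen on such differences, and its mean reached the minimum only through its H1299 signals. The ranks follow in part from that selection and are a description only. Because the A549 values are at the level of dim probes, the ratios depend on that level, and with no offset the log2 differences were 7.00 and 6.25. Within H1299 the BEX1 signal was 1.64-fold higher with hMOF siRNA than with scramble (log2 0.71), and within A549 the log2 difference was −0.02.

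The 4-array profile of BEX1 was matched most closely by MAGEA12, a cancer-testis antigen gene, and by TDRD12, a Tudor domain gene of the piRNA pathway. The measure was the root mean square distance between centred log2 profiles over the 4 arrays, which was 0.15 for MAGEA12 and 0.21 for TDRD12. MAGEA12 had signals of 3482 with hMOF siRNA and 2843 with scramble in H1299, against 32.7 and 33.4 in A549. With 4 arrays this likeness mostly restates that both genes were bright in one line and dim in the other.

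NEFH, the heavy neurofilament subunit on chromosome 22 (29480218 to 29491390), had 2 probe sets, and both separated the lines. On 33767_at the signal was 1393 with hMOF siRNA and 264 with scramble in H1299, and 9.98 and 8.16 in A549. The other, 204412_s_at, gave 514 with hMOF siRNA and 119 with scramble in H1299, and 37.9 and 43.5 in A549. On both probe sets the H1299 array with hMOF siRNA stood above the H1299 scramble array, and both stood above the A549 arrays. Within H1299 the log2 difference of hMOF siRNA minus scramble was 2.28 on 33767_at and 1.87 on 204412_s_at. In A549, where the signals were low, the differences were 0.07 and −0.12.

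The H1299 minus A549 difference of NEFH was 5.19 under hMOF siRNA and 2.97 under scramble on 33767_at, and 3.02 and 1.03 on 204412_s_at. Both probe sets thus placed NEFH higher in H1299 under either siRNA, with the larger gap under hMOF siRNA. The sizes depended on the probe set and on the offset, with 7.13 and 5.01 for 33767_at when no offset was added. Among 12830 genes the siRNA difference of NEFH in H1299 had rank 5 from the top. NEFH too was chosen on such differences, and its mean reached the minimum only through its H1299 signals, so this rank is a description only. The 2 probe sets were read from the same RNA on the same arrays, so they are no replicates of each other. The closest 4-array profiles to that of NEFH were those of ZNF542P, a zinc finger pseudogene (distance 0.44), and NTM, which encodes the neural adhesion protein neurotrimin (0.51). NTM had signals of 715 with hMOF siRNA and 346 with scramble in H1299, and 14.5 and 12.7 in A549.

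NEFM and NEFL, the medium and light subunits, are neighbours on chromosome 8, at 24913761 to 24919093 and 24950955 to 24956612. Neither followed NEFH. On the brighter NEFM probe set, 205113_at, the signal was 65.8 with hMOF siRNA and 64.8 with scramble in H1299, and 75.7 and 59.1 in A549. The other, 223902_at, gave 31.8 and 44.7 in H1299 and 41.5 and 39.8 in A549 in the same order of siRNAs. No NEFM value was far from the rest, and the lines overlapped on both probe sets.

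The 3 NEFL probe sets disagreed with one another. On 221805_at the signal was 24.7 with hMOF siRNA and 33.6 with scramble in H1299, and 55.5 and 118 in A549. On 221916_at it was 13.9 and 16.9 in H1299, and 46.0 and 101 in A549. On both, the A549 scramble array was the highest, the A549 hMOF siRNA array came next and both H1299 arrays were lowest, which is the opposite order of lines to NEFH. In A549 the signal left with hMOF siRNA was 47.2% and 45.7% of that with scramble, and on the log2(signal + 29.06) scale both probe sets were at −0.79, so that the signals differed by over 2-fold and the offset values did not. Under scramble their H1299 minus A549 differences were −1.23 and −1.50, and under hMOF siRNA −0.65 and −0.81. The third probe set, 221801_x_at, of a class with probes that may cross-hybridise, showed neither pattern. Its signal was 58.8 with hMOF siRNA and 81.4 with scramble in H1299, and 67.2 and 65.6 in A549. All 3 had mean signals below the minimum, where MAS5 values vary most, and which of them reads NEFL best was not tested.

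UCHL1, on chromosome 4 (41256928 to 41268455), was bright in both lines. The signal of 201387_s_at was 8749 with hMOF siRNA and 7105 with scramble in H1299, and 7351 and 7391 in A549. The lines overlapped under scramble, with an H1299 minus A549 difference of −0.06, and under hMOF siRNA the difference was 0.25. The second probe set, 1555834_at, gave 250 with hMOF siRNA and 154 with scramble in H1299, and 144 and 155 in A549. Its H1299 array with hMOF siRNA stood above the other 3 arrays, which lay close together. Within H1299 the siRNA difference was 0.30 on the first and 0.61 on the second, and within A549 −0.01 and −0.09. The profile of 201387_s_at was nearest to those of SLC39A6, a zinc transporter gene, and the uncharacterised LOC105373383, both at a distance of 0.013. Such small distances are common among genes that hardly vary over the arrays. The other UCH family hydrolases measured, UCHL3 and UCHL5, had line differences of −0.14 (limma adjusted p = 0.359) and −0.29 (0.191), neither past the threshold.

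The 3 diagnostic neuroendocrine markers had low signals. SYP, the synaptic vesicle protein gene on chromosome X (49187815 to 49200193), had 1 probe set, with 92.7 under hMOF siRNA and 79.2 under scramble in H1299. In A549 its signal was 58.0 and 62.5 in that order. The H1299 values were the higher on both siRNAs, by 0.48 under hMOF siRNA and 0.24 under scramble. CHGA, the granule protein gene on chromosome 14 (92922664 to 92935285), had signals of 62.3 with hMOF siRNA and 57.2 with scramble in H1299, and 59.8 and 59.4 in A549. The values of the lines overlapped.

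NCAM1, on chromosome 11 (112961420 to 113278436), had 7 probe sets, of which 2 reached the minimum mean signal. On 209968_s_at the signal was 72.7 with hMOF siRNA and 60.0 with scramble in H1299, and 114 and 101 in A549. On 227394_at it was 69.9 and 65.2 in H1299, and 91.4 and 87.5 in A549. Both A549 arrays exceeded both H1299 arrays on these probe sets, so the small line difference ran opposite to that of BEX1 and NEFH. It was −0.49 under hMOF siRNA and −0.55 under scramble on 209968_s_at, and −0.28 and −0.31 on 227394_at. The other 5 NCAM1 probe sets ran from 8.63 to 62.2, and of these 214952_at had the same order of lines, with 45.3 and 47.2 in H1299 and 50.5 and 54.2 in A549, while on the remaining 4 the lines overlapped. The profile of 209968_s_at was nearest to those of ZNF765 and the nuclear pore gene NUP160, at distances of 0.0061 and 0.0072. Detection calls were not used here, so whether these 3 genes and NEFM were above background on any array is not known from the signals alone.

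Counted over all 19 probe sets, 2 were higher by 2-fold or more in H1299 with hMOF siRNA, both of NEFH, and 0 were lower by as much. In A549 the counts were 0 and 0. Among the 41091 probe sets of a single gene on the array, 0.725% were 2-fold higher and 1.19% 2-fold lower in H1299, and 0.399% and 0.596% in A549. The median difference of the 19 was 0.07 in H1299 and 0.02 in A549, and that of all 41091 was 0.01 and 0.00. Between lines, 3 of 19 were 2-fold higher in H1299 under hMOF siRNA, against 5.77% of all, and none were 2-fold lower, against 6.44%. Under scramble 3 were 2-fold higher, against 5.21% of all, and 2 were 2-fold lower, against 6.23%, both of NEFL. The median line difference of the 19 was −0.10 under hMOF siRNA and 0.05 under scramble, and that of all was −0.01 under both. The 8 genes showed no common direction, neither between lines nor with siRNA. Since these contrasts were used to choose the genes, nothing further is read from the counts.

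**Figure D2:**
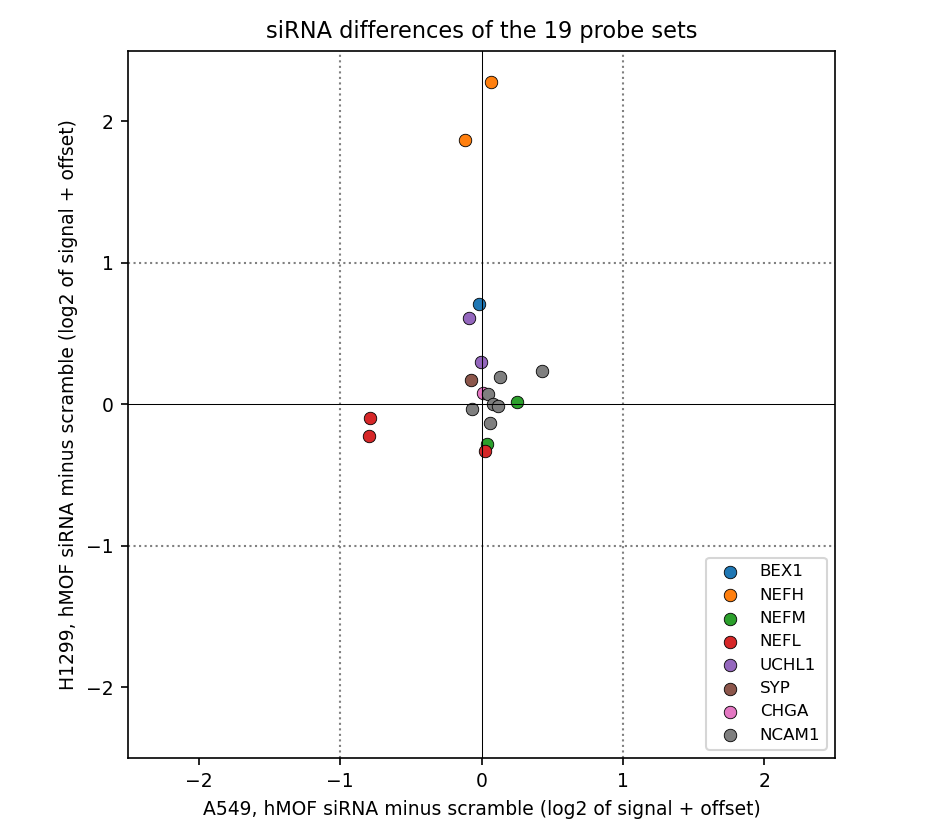
Difference of hMOF siRNA minus scramble in log2(signal + 29.06) for the 19 probe sets, with A549 on the horizontal and H1299 on the vertical axis, 1 point per probe set, coloured by gene, and dotted lines at 2-fold. Both NEFH points lie above 2-fold in H1299 and near 0 in A549, and 2 NEFL points lie at −0.79 in A549.

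The array labelled hMOF siRNA had less KAT8 signal than its scramble array in both lines. On 221820_s_at 25.6% was left in H1299 (61.8 against 241) and 26.4% in A549 (106 against 402). On the dimmer 214885_at, below the minimum, 64.5% was left in H1299 (39.8 against 61.7) and 83.8% in A549 (51.6 against 61.6). The arrays had median signals of 73.3 to 75.4, and log2 signals correlated at Pearson r = 0.981 between the H1299 arrays and 0.986 between the A549 arrays, against 0.884 to 0.894 between lines, across probe sets, which are not independent replicates.

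To set the 8 genes among their pathways, 9 lists of related genes were read from limma fits over all 12830 genes, with Benjamini-Hochberg adjustment and a threshold of 0.05. The line comparison took the siRNAs as its repeats and the siRNA comparison took the lines. The p-values rest on 1 residual degree of freedom, with limma's sharing of variance across genes. That residual is how far the siRNA difference varied between the lines, and not a spread between cultures. A difference seen in 1 line only therefore enlarges its own error. Of 127 listed genes, 83 were measured above the minimum. Between lines, 26 of them were higher and 23 lower in H1299 than in A549, and 34 did not pass. Of all genes 25.1% were higher and 27.3% lower, 52.4% in all, so the listed genes were spread over both directions much as all genes were. Their median difference was −0.06, against −0.03 over all genes.

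Of the lists nearest to the neurofilaments and BEX1, only the BEX and TCEAL family had genes that passed in both directions. Of 7 intermediate filament genes measured, 4 were higher in H1299, none lower, and 3 did not pass. INA, which encodes alpha-internexin, a filament partner of the neurofilaments, had signals of 2562 with hMOF siRNA and 2624 with scramble in H1299, and 1117 and 600 in A549 (log2 difference 1.63, SE 0.23, limma adjusted p = 0.00469). The nuclear lamina genes LMNA (0.90) and LMNB1 (0.83) were the next in size, followed by the mesenchymal filament gene VIM (0.61). PRPH, which encodes peripherin, a filament protein of peripheral neurons, did not pass (−0.11). Of 8 BEX and TCEAL family genes measured, 3 were higher in H1299, 3 lower and 2 did not pass. BEX2, the closest relative of BEX1, had signals of 1470 with hMOF siRNA and 1132 with scramble in H1299, and 234 and 292 in A549 (2.18, SE 0.18, limma adjusted p = 0.00100). BEX4 (1.24) and TCEAL3 (0.81) were also higher in H1299, whereas BEX3 (−0.58), TCEAL8 (−0.72) and TCEAL9 (−1.09) were lower. None of these genes passed the siRNA test.

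Among 15 microtubule and growth cone genes, 4 were higher in H1299, 6 lower and 5 did not pass. STMN3, a stathmin that destabilises microtubules, showed the largest difference of this list, with 3779 under hMOF siRNA and 4627 under scramble in H1299, and 206 and 99.8 in A549 (4.60, SE 0.29, limma adjusted p = 0.000423). TUBB2B (1.18) and TUBB3 (0.50), both neuronal beta tubulins, were higher too, each on an _x_at probe set, the class with probes that may cross-hybridise. Without that class 23 of the listed genes were higher between lines in place of 26. The lowest were DPYSL4 (−2.76), the microtubule-associated protein gene MAP1B (−1.82) and MAP2 (−1.06), a dendrite marker. The MAP2 value was that of 225540_at. On its other probe set above the minimum, 210015_s_at, the line difference was −0.37 under hMOF siRNA and −0.006 under scramble. Of 7 neural adhesion and polysialylation genes measured, 0 were higher in H1299, 5 lower and 2 (NCAM2 and CNTN2) did not pass. CADM1, a cell adhesion gene, had signals of 12.1 and 8.23 in H1299, against 4933 and 3822 in A549, with hMOF siRNA and scramble in that order (−6.80, SE 0.12, limma adjusted p = 4.33e-05). NRCAM (−4.62) and the contactin gene CNTN1 (−4.17) followed.

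**Figure D3:**
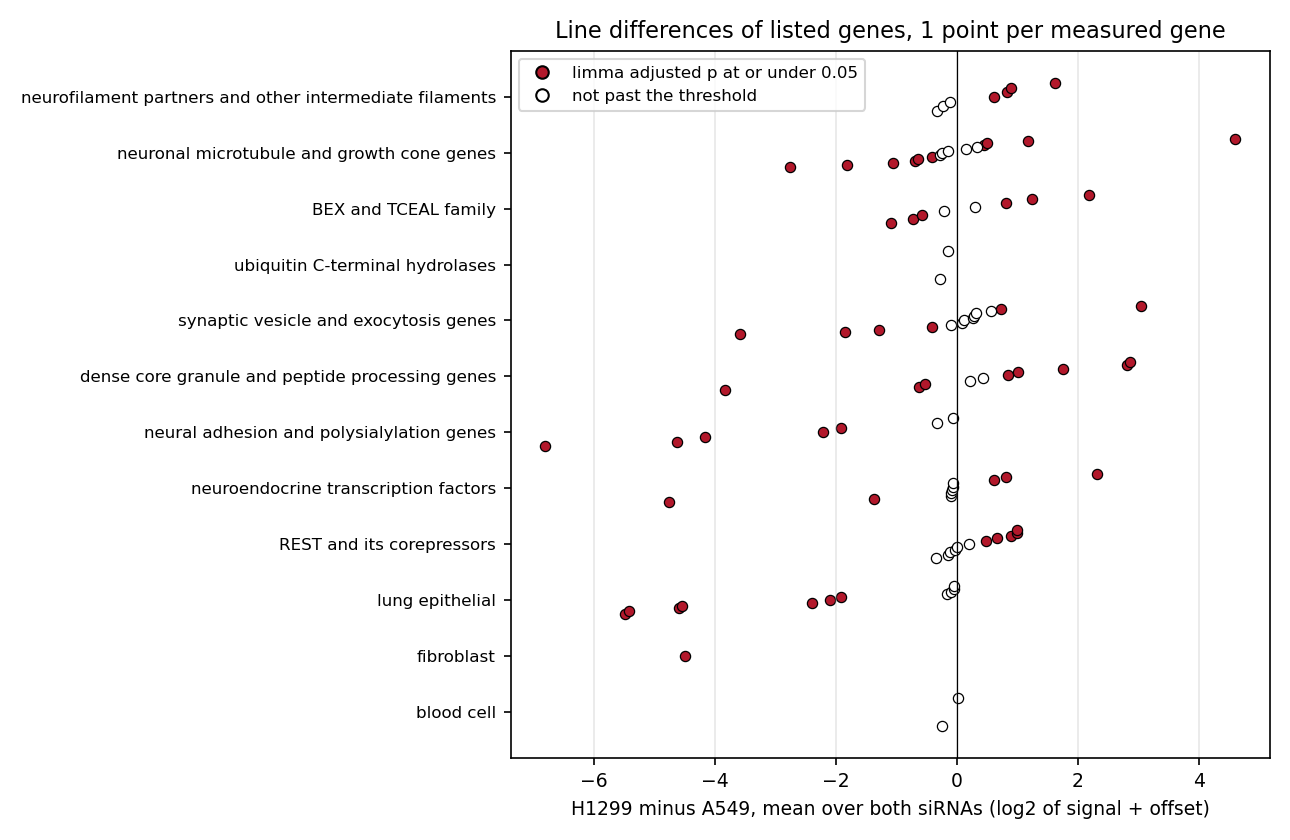
H1299 minus A549 difference in log2(signal + 29.06), mean over both siRNAs, for each measured gene of the 9 neuronal and neuroendocrine lists and of 3 cell type marker lists (rows). Filled points passed limma's test. Most lists hold genes on both sides of 0. The adhesion and lung epithelial genes that passed all lie below it, and the intermediate filament and REST corepressor genes that passed all lie above it.

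The granule and vesicle genes around CHGA and SYP were split as well. Of 10 dense core granule genes measured, 5 were higher in H1299, 3 lower and 2 did not pass. The granule protein genes SCG2 (2.86, SE 0.22, limma adjusted p = 0.000794) and VGF (2.82, SE 0.41, limma adjusted p = 0.00479) and the peptide amidating enzyme gene PAM (1.75) led the higher ones. CHGB, the sister of CHGA, was higher by 0.85, with 578 under hMOF siRNA and 316 under scramble in H1299, and 253 and 199 in A549. The lower ones were SCG5 (−3.82), which encodes the chaperone 7B2 of a granule protease, PCSK1N (−0.62) and PTPRN (−0.53). Of 13 synaptic vesicle and exocytosis genes, 2 were higher, 4 lower and 7 did not pass. RIMS2, an active zone scaffold, was higher by 3.04 and VAMP1 by 0.73, whereas CPLX2 (−3.59), SNAP25 (−1.85) and SYT1 (−1.29), genes of the membrane fusion machinery, were lower.

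Of 10 measured genes in the list of neuroendocrine transcription factors, which also holds the RNA-binding protein genes ELAVL3 and ELAVL4, 3 were higher in H1299, 2 lower and 5 did not pass, ELAVL3 and ELAVL4 among them. POU3F2, a neural POU factor, was higher by 2.32, HES6 by 0.81 and POU4F1 by 0.61, while FOXA2 (−4.75) and SOX2 (−1.37) were lower. INSM1, a zinc finger factor of neuroendocrine cells, lay below the minimum, with 66.0 under hMOF siRNA and 69.0 under scramble in H1299, and 64.0 and 80.3 in A549. REST had signals of 136 with hMOF siRNA and 216 with scramble in H1299, and 170 and 184 in A549. Neither its line difference (−0.04, limma adjusted p = 0.860) nor its siRNA difference (−0.33, limma adjusted p = 0.273) passed. Of 11 measured genes in the list of REST and its corepressors, 5 were higher in H1299, namely HDAC1 (0.99), CTDSP1 (0.99), EHMT2 (0.90), HDAC2 (0.66) and RCOR1 (0.49), and none were lower.

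With hMOF siRNA over both lines, 0 of the 83 listed genes rose, 2 fell and 81 did not pass limma's test, against 1.16% of all genes higher and 2.41% lower, 3.57% in all. At an unadjusted p under 0.05 there were 12 higher and 11 lower, 27.7% of the listed genes, against 23.8% of all genes tested. RAB3B, a small GTPase of regulated exocytosis, fell on its brightest probe set to 303 with hMOF siRNA, against 658 with scramble, in H1299, and to 228, against 541, in A549 (mean −1.10, SE 0.11, limma adjusted p = 0.0295). Its other 4 probe sets were lower with hMOF siRNA in both lines too, by −0.45 to −1.02. NRCAM fell as well (−0.65 in H1299, −0.89 in A549, limma adjusted p = 0.0483), and its H1299 signals were low, at 29.7 with hMOF siRNA and 63.2 with scramble. Its second probe set above the minimum, 216959_x_at, was at −0.06 in H1299 (31.7 with hMOF siRNA against 34.4 with scramble) and −0.72 in A549. The call on NRCAM was lost under 6 of the 10 alternative settings, one of which also lost the call on RAB3B.

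Of the 10 measured granule genes, 5 were higher and 5 lower in value with hMOF siRNA than with scramble in H1299, with a median difference of 0.03, and those lower in value were CPE (−0.35), PAM (−0.33), PTPRN2 (−0.20), SCG5 (−0.15) and PTPRN (−0.06). At least 2-fold higher with hMOF siRNA there were 3 of the 83 listed genes, VGF, SCG2 and CALCA, against 1.22% of all genes, and 2 were at least 2-fold lower, RAB3B and STX1A, against 2.21%. VGF had 2160 with hMOF siRNA and 527 with scramble in H1299 (log2 1.98), and 143 and 113 in A549 (0.27). SCG2 had 532 and 233 in H1299 (1.10), and 28.7 and 19.5 in A549 (0.25). CALCA, the calcitonin gene, stood at 165 and 51.1 in H1299 (1.27) on 217495_x_at, but its other probe set above the minimum was at 0.01. The A549 signals of 217495_x_at were 69.2 with hMOF siRNA and 57.1 with scramble. Only its H1299 signal with hMOF siRNA was above the minimum set for the mean. That array thus decided that this probe set passed and stood for CALCA, so the place of CALCA in the count follows in part from the selection. VGF was also read by an _x_at probe set. In A549, MAP2 was 2-fold higher and RAB3B 2-fold lower, 1 gene each, against 0.717% and 1.14% of all genes. The MAP2 value was that of 225540_at (1.15), and its other probe set above the minimum, 210015_s_at, was at 0.49. These are differences of 1 array against 1 array, and over both lines VGF (limma adjusted p = 0.192), SCG2 (0.162) and CALCA (0.199) did not pass. Because a rise in 1 line only enlarges the error of that test, not passing says little of H1299 alone.

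**Figure D4:**
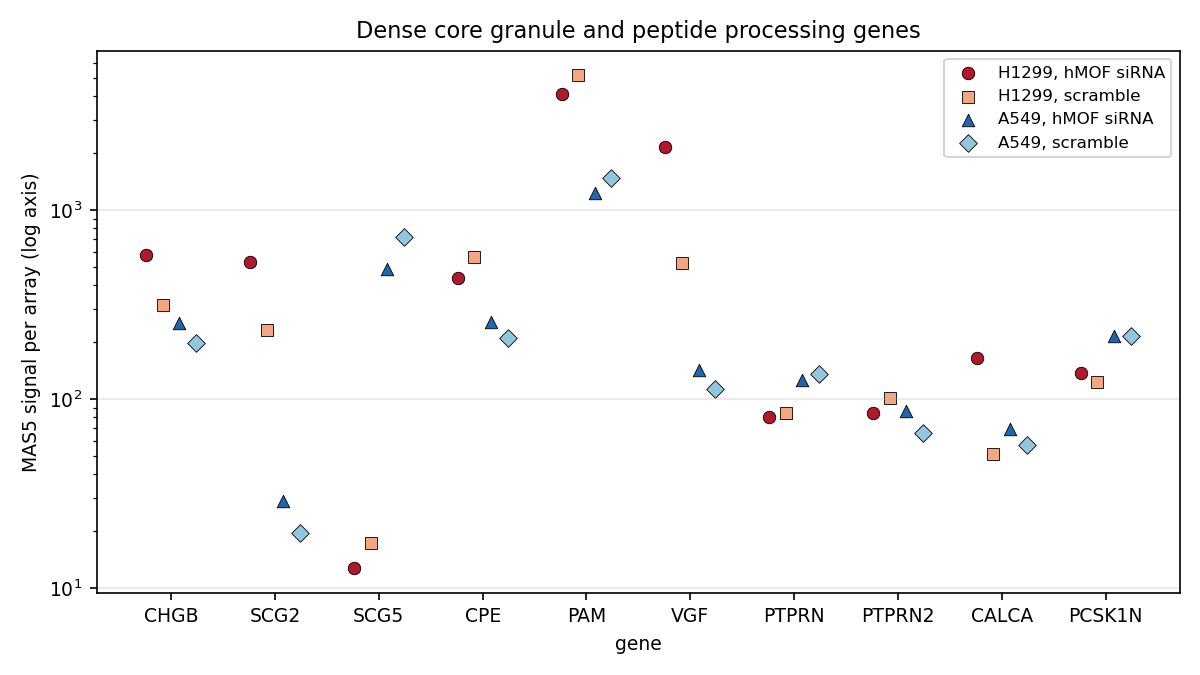
MAS5 signal of the 10 measured dense core granule and peptide processing genes on the 4 arrays, on a log axis, with 1 symbol per array. VGF, SCG2 and CALCA are highest on the H1299 array with hMOF siRNA, and SCG5 is bright in A549 only.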

How the data were processed

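Total RNA was labelled as biotinylated cRNA and hybridised to Affymetrix arrays, 1 per sample. The authors deposited 1 intensity per probe set on a linear scale, which the submitters' processing notes credit to MAS5. The MAS5 version and scaling target: not given in the sources used here. Genes were named through the platform annotation, updated by gene identifier in RefSeq (GRCh38.p14), with 41091 probe sets of 1 gene. The number of arrays limits the precision.

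Signals were taken as log2 after adding 29.06 (20th percentile), with no further scaling. Probe sets with a mean signal of at least 78.1 (50th percentile) were kept, and each gene was represented by its brightest one. limma 3.58.1 in R 4.3.3 was fitted with terms for line and siRNA on 1 residual degree of freedom, and was tested on simulated data. Each simulated siRNA effect was the same in both lines, with spreads drawn from limma's own variance estimate. The simulation therefore cannot show how the fit does where the lines respond differently. Named genes were KAT8, all probe sets of the 8 genes, the 2 nearest profiles to each, all listed genes called for siRNA, up to 3 called each way between lines, and REST. Genes named beyond this rule were chosen after their values were seen. Members and lists were chosen with earlier results of these data known. Listed genes without a probe set of their own were not analysed here. Alternatives changed the offset, the signal minimum, the scaling, the probe set rule, the block and the variance trend. Figures were drawn with matplotlib 3.10.9.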

Additional observations from a re-analysis of the deposited data

Results flagged for a closer look

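The hMOF siRNA minus scramble difference of the NEFH probe set 204412_s_at had opposite signs in the lines, at 1.87 in H1299 and −0.12 in A549 on the log2(signal + 29.06) scale. The brighter NEFH probe set, 33767_at, did not show this, at 2.28 in H1299 and 0.07 in A549. The difference between lines was not tested, with 1 array pair in each, and the A549 signals of 37.9 with hMOF siRNA and 43.5 with scramble were dim.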

How the results depend on the processing

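No analysis paired by replicate number was possible because the labels give none, and the block for cell line paired hMOF siRNA with scramble within each line. For the brightest probe set of each of the 8 genes, the 4 differences were recomputed under the 2 other offsets and 2 scalings, 128 values in all. Of these, 20 were of differences of 2-fold or more and stayed so with the same sign, and 108 stayed under 2-fold. In A549 the dim NEFL probe sets 221805_at and 221916_at had scramble signals 2.12-fold and 2.19-fold those with hMOF siRNA when no offset was added. Of the 83 listed genes, the count lower with hMOF siRNA was 2, and 1 with the offset at the 40th percentile, with no minimum or after centring on the median, 4 with the minimum at the 70th percentile, and 0 with no block for cell line. The count higher was 0, and 1 after quantile normalization (SOX2). The call on NRCAM had limma adjusted p-values of 0.0342 to 0.0888 over the 9 alternatives that kept the block, and RAB3B of 0.0214 to 0.0346. Over all genes, 149 were higher and 309 lower with siRNA, 282 and 366 after quantile normalization, and 0 and 0 without the block, where 350 had an unadjusted p under 0.05. The lower share of calls was 67.5% and, after quantile normalization, 56.5%. Between lines 3225 were higher and 3499 lower, and 2015 and 2286 with no block for siRNA. In A549, 92 genes were 2-fold higher with siRNA, and 139 with no offset. The causes were not tested. Differences of genes whose signals lie near the offset, such as BEX1 and NEFH in A549, have sizes set in part by it.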

Other observations

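Marker genes of other cell types were read on the same arrays. Of 11 lung epithelial genes measured, 0 were higher in H1299 than in A549, 7 were lower and 4 did not pass limma's test, with a median difference of −2.09. Over all genes, 25.1% were higher and 27.3% lower in this comparison. The cadherin gene CDH1 had signals of 7.61 with hMOF siRNA and 8.04 with scramble in H1299, against 1562 and 1535 in A549, and the keratin gene KRT7 105 and 139, against 6548 and 6775. Of the surfactant protein genes, SFTPC had signals of 110 to 120 and SFTPB 702 to 798 on the 4 arrays, and neither passed between lines. Of 6 fibroblast genes only COL1A1 passed the minimum, at 7.89 with hMOF siRNA and 7.97 with scramble in H1299 and at 1191 and 541 in A549. Of the blood cell genes, CD3E and HBB passed the minimum and 0 were called between lines. Below the minimum, PTPRC, the leukocyte surface phosphatase gene, had signals of 31.6 to 41.5. CD14, also below it, had 28.0 with hMOF siRNA and 30.4 with scramble in H1299, against 116 and 127 in A549. Its H1299 minus A549 differences were −1.35 under hMOF siRNA and −1.39 under scramble. Whether any of these differences bears on the neuronal genes was not tested.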
